A study of Homo sapiens with 6 samples.

Results

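Keratins, the intermediate filament proteins of epithelial cells, were read in PC3, a human cell line established from a prostate cancer metastasis, by the probes whose annotated gene symbol was KRT5, KRT7, KRT8, KRT14, KRT15, KRT17, KRT18, KRT19, KRT80 or KRT81. Of these 10 genes, 8 had a named probe, with 10 probes among the 24526 of the array. No probe carried the symbol KRT17 or KRT81 in the annotation used here, so these genes were not analysed here. Total RNA went onto 6 arrays of the Illumina HumanRef-8 v3 type, 3 of PC3 cells with a GFP transgene (the control) and 3 of PC3 cells with a GRK3 transgene, which encodes a kinase of activated G protein-coupled receptors. All cells grew in RPMI medium with serum and antibiotics. The promoter of the transgenes, the time since transfer, and whether a group was a pool or 1 clone are not given in the labels. A difference between the groups is therefore one between these cell populations. In bulk RNA, fewer cells of a type and less RNA per cell cannot be told apart.

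Keratin filaments are built from pairs of an acidic (type I) and a basic (type II) chain. KRT8 (type II) and KRT18 (type I) form the first pair of simple epithelia and of the luminal layer of the prostate, where KRT7 and KRT19 can accompany them. KRT5 (type II) and KRT14 (type I) form the pair of basal cells of stratified and glandular epithelia, and KRT15 is another type I chain of basal layers. In the RefSeq gene table of GRCh38.p14, KRT80, KRT7, KRT81, KRT5, KRT8 and KRT18 lie in the keratin cluster of chromosome 12, where KRT8 and KRT18 are next to each other, and KRT15, KRT19, KRT14 and KRT17 lie in that of chromosome 17.

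Mean signal over all probes lay between 1171 and 1387 per array, and 56.2% to 58.6% of probes were detected, that is, had a detection p under 0.05 against the negative control probes. Precision is limited by the number of arrays. Nothing in the labels ties the arrays of a group to separate cultures, and p-values cover the spread between these arrays, in part or whole perhaps technical. Epithelial identity could be read from EPCAM and CDH1, which were detected on all 6 arrays, as were KRT8, KRT18 and KRT19. The prostate luminal genes KLK3 and TMPRSS2 were detected on 0 arrays and KLK2 on 1. FOLH1 was detected on 1 GFP and 2 GRK3 arrays at its brighter probe and on 0 at the other. Its detection p-values on those arrays, 0.0453 to 0.0485, were close to the limit of 0.05. Of the markers of other cells, 4 of 11 fibroblast, 4 of 10 leukocyte and 2 of 7 endothelial genes with a named probe were detected on at least 3 arrays. ACTA2, PDGFRA, CD68 and PECAM1 were among those detected on all 6 arrays, whereas COL1A2, COL3A1, PTPRC and CD3E were detected on 0.

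None of the keratins was called different between GRK3 and GFP cells, and the split between detected and undetected chains was the same in both. The genes KRT7, KRT8, KRT15, KRT18, KRT19 and KRT80 were detected on all 6 arrays, and the basal pair KRT5 and KRT14 on 0. Of the 8 probes of the 6 detected genes, 4 were higher and 4 lower in GRK3 cells, 0 passed (limma adjusted p from 0.744 to 0.999) and 0 had an unadjusted p under 0.05. Over all 14130 probes tested, 0.573% passed and 11.6% had an unadjusted p under 0.05. The groups of 3 arrays overlapped at all 8 probes, where 16.4% of all tested probes did not overlap. With so few probes, counts of 0 are near these backgrounds and do not set the keratins apart. The median difference of the 8 probes, GRK3 minus GFP on the log2 scale, was -0.01, as over all tested probes. Normalized values below are log2 of the background-corrected and quantile-normalized signal. Levels of different probes cannot be set against each other.

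**Figure D1:**
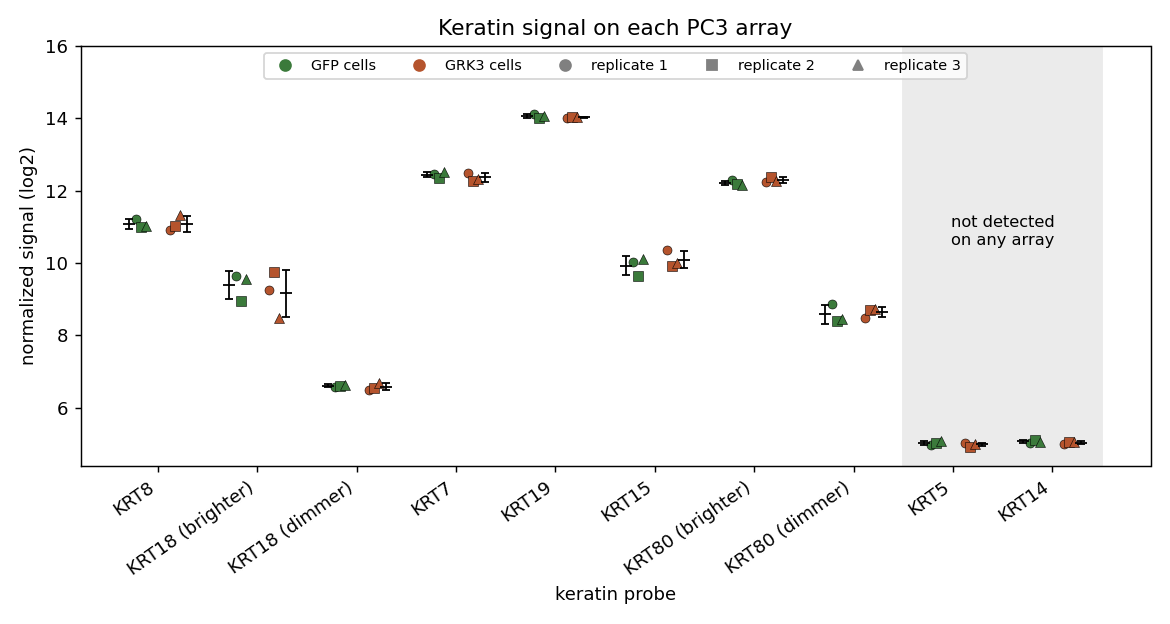
Normalized signal (log2, vertical axis) of the 10 keratin probes (horizontal axis) on each array, green for GFP and orange for GRK3 cells, with a marker shape for each replicate. Dashes with bars are the mean and SD of 3 arrays. The groups overlap at every probe, and the KRT5 and KRT14 probes in the grey band were detected on 0 of 6 arrays.

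KRT8 did not differ between the groups beyond its spread. Its normalized values were 11.22, 10.98 and 11.02 on GFP arrays 1, 2 and 3 and 10.90, 11.01 and 11.32 on GRK3 arrays 1, 2 and 3. The highest array and the lowest were both GRK3 arrays, and the GFP arrays lay between them. The difference was 0.00 ± 0.12 (SE), with a 95% interval from -0.28 to 0.28, or 0.826-fold to 1.21-fold (limma adjusted p = 0.999).

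KRT18, the partner of KRT8, had 2 probes that did not show the same pattern. The brighter one gave 9.65, 8.94 and 9.56 on GFP arrays 1 to 3 and 9.26, 9.76 and 8.48 on GRK3 arrays 1 to 3. In deposited signal these were 800, 574 and 895 against 662, 976 and 374, so the highest and the lowest array of the series at this probe were again both GRK3 arrays. The difference was -0.22 ± 0.29 (SE), with a 95% interval from -0.87 to 0.43, or 0.548-fold to 1.35-fold (limma adjusted p = 0.846). It was 0.13 without GRK3 replicate 3 and -0.52 without GRK3 replicate 2, so its sign rests on 1 array. GRK3 replicate 3 also had the lowest mean signal over all probes, 1171. The part of that in the low KRT18 value was not tested. The dimmer KRT18 probe gave 6.57, 6.61 and 6.64 on GFP arrays and 6.50, 6.55 and 6.69 on GRK3 arrays, with GRK3 replicate 3 the highest of the 6. Its difference was -0.03 ± 0.09 (SE; limma adjusted p = 0.956), and its range over 6 arrays was 0.19 against 1.28 at the brighter probe. The dimmer probe read 142 to 168 in deposited signal, with detection p-values from 0.0194 to 0.0259, close to background, where log2 ranges are compressed, so the ranges of the 2 probes are not on an equal footing. The annotation pairs the probes with different RefSeq transcripts of KRT18. KRT18 has many near-identical pseudogene copies, and their share in the signal was not tested.

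The brighter KRT18 probe was among the most variable probes of the array. Its within-group SD (the root mean of both groups' variances) was 0.53 on the log2 scale, higher than that of 99.8% of the 14130 tested probes, whose median was 0.13. KRT15 followed with 0.25, higher than 91.9%, and KRT8 had 0.18, higher than 75.9%. KRT19 was at the other end, with 0.03, higher than only 1.12% of the tested probes, though with median scaling it was 0.06, higher than 7.37%. The SD of the brighter KRT18 probe lay between 0.48 and 0.54 under no background correction, median scaling, an offset of 50 and the authors' value table. These comparisons of spread were chosen after the values were seen.

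**Figure D2:**
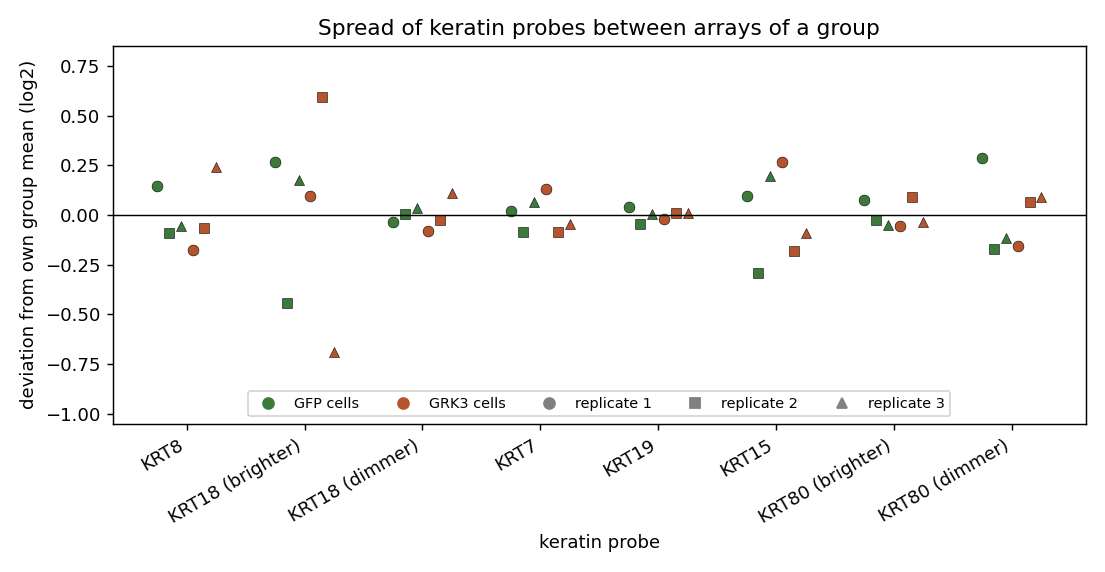
Deviation of each array from its own group mean (log2, vertical axis) at the 8 tested keratin probes (horizontal axis), green for GFP and orange for GRK3 arrays, with a marker shape for each replicate. The brighter KRT18 probe reaches from the high GRK3 replicate 2 to the low GRK3 replicate 3, while the 6 arrays of KRT19 lie close to 0.

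KRT8 and the brighter KRT18 probe lay on the same side of their group means on 2 of 6 arrays, GFP replicates 1 and 2, and on opposite sides on the other 4. On the GFP arrays both were highest on replicate 1 and lowest on replicate 2, whereas on GRK3 replicate 3 KRT8 was at its highest and KRT18 at its lowest of the 6 arrays. Over the 6 arrays, the genes whose normalized values followed KRT8 most closely among 10585 named tested genes were LGALS3BP, GYS1 and FAM184A, with Pearson correlations of 0.996, 0.977 and 0.976. For the brighter KRT18 probe they were PLXNA2, PKN3 and CLEC2D, with 0.993, 0.976 and 0.971. With 6 arrays and so many genes, the highest correlations are a description of these arrays.

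KRT7 and KRT19, the further simple-epithelial chains (type II and type I), overlapped between the groups with narrow intervals. KRT7 gave 12.46, 12.36 and 12.50 on GFP arrays 1 to 3 and 12.50, 12.28 and 12.32 on GRK3 arrays 1 to 3. Its difference was -0.07 ± 0.10 (SE), with an interval of 0.818-fold to 1.10-fold (limma adjusted p = 0.839). KRT19, the smallest keratin, which lacks most of the tail domain, gave 14.11, 14.02 and 14.07 on GFP arrays and 14.01, 14.04 and 14.04 on GRK3 arrays. In deposited signal KRT19 ran from 15168 to 18353, the lowest again on GRK3 replicate 3. Its difference was -0.04 ± 0.08 (SE), with an interval of 0.858-fold to 1.11-fold (limma adjusted p = 0.921).

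KRT15, the basal type I chain, was detected although its basal companions KRT5 and KRT14 were not. It gave 10.02, 9.63 and 10.12 on GFP arrays 1 to 3 and 10.36, 9.91 and 10.01 on GRK3 arrays 1 to 3. Of the 8 probes it had the largest positive difference, 0.17 ± 0.15 (SE), with an interval of 0.889-fold to 1.43-fold (limma adjusted p = 0.744). That size rests on single arrays: it shrank to 0.03 when GFP replicate 2 was left out and to 0.04 when GRK3 replicate 1 was, and grew to 0.27 on leaving out GFP replicate 3 and to 0.26 on leaving out GRK3 replicate 2. GRK3 replicate 1 was the highest and GFP replicate 2 the lowest array, and the other 4 lay together between 9.91 and 10.12.

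KRT80, a type II chain of differentiating epithelia that joins desmosomal plaques, had 2 probes that agreed in sign. The brighter gave 12.29, 12.19 and 12.17 on GFP arrays and 12.24, 12.38 and 12.25 on GRK3 arrays, a difference of 0.08 ± 0.09 (SE; limma adjusted p = 0.820). The dimmer gave 8.86, 8.40 and 8.46 against 8.48, 8.70 and 8.73, a difference of 0.06 ± 0.13 (SE; limma adjusted p = 0.916). The 2 KRT80 probes lay on the same side of their group mean on 5 of 6 arrays, and the KRT18 probes on 1 of 6.

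The basal pair stayed in the background of both groups. The KRT5 probe read 50.6, 61.9 and 65.5 on GFP arrays and 60.9, 53.8 and 57.7 on GRK3 arrays in deposited signal, with detection p-values from 0.660 to 0.990. The KRT14 probe read 55.7, 70.2 and 65.0 against 59.1, 65.1 and 61.5, with detection p-values from 0.534 to 0.896. Since both groups were at background, no fold is given. A low level under the detection limit of these probes, or a probe that works poorly, cannot be told apart from absence.

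**Figure D3:**
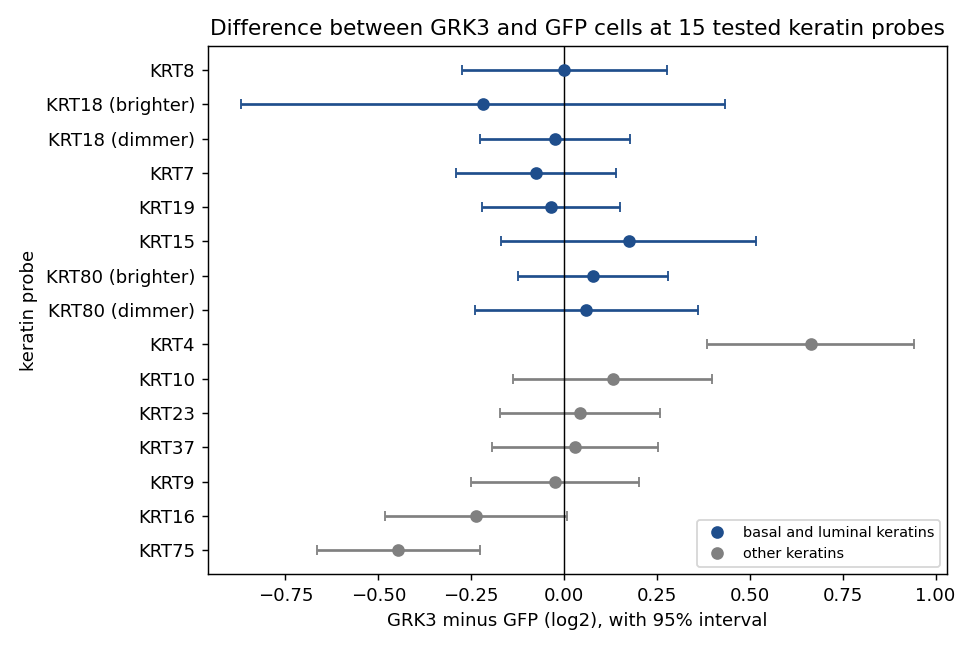
Difference between GRK3 and GFP cells (log2, horizontal axis) with its 95% limma interval at the 8 tested probes of the basal and luminal keratins (blue) and the 7 tested probes of other keratins (grey). All blue intervals include 0. The grey interval of KRT75 does not, although KRT75 did not pass the adjusted threshold, and KRT4 was tested only through its GRK3 arrays, so its interval is no support for a difference.

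Among other keratins, KRT4 and KRT75 stood furthest from 0, and neither passed. Of 40 other keratin genes with a named probe, 7 were tested (KRT4, KRT9, KRT10, KRT16, KRT23, KRT37 and KRT75), 0 passed and 2 (KRT4 and KRT75) had groups that did not overlap, against 16.4% of all tested probes. KRT4, a type II chain of mucosal epithelia, gave 5.23, 5.37 and 5.13 on GFP arrays and 5.76, 5.80 and 6.16 on GRK3 arrays. It was detected on 0 GFP and 3 GRK3 arrays, so it passed the detection filter only through the group where it was high. The "at least" fold of its means was 1.12, a value without an interval. GRK3 arrays 1 and 2 lay close to the floor of 5.74 used for it. This fold and the limma adjusted p of KRT4, 0.0555 (0.0319 without GRK3 replicate 1), follow from the selection by the filter and are given as a description.

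KRT75, a type II chain of the hair follicle, was read well above background. It gave 12.31, 12.32 and 12.55 on GFP arrays and 12.00, 11.95 and 11.89 on GRK3 arrays, with every GRK3 array under every GFP array. The difference was -0.45 ± 0.10 (SE), or 0.734-fold with an interval from 0.631-fold to 0.854-fold (limma adjusted p = 0.0908). KRT75 passed in 4 of 16 alternatives, with adjusted p from 0.0288 to 0.316. Type II keratin genes next to KRT75 in the cluster, such as KRT6A, KRT6B and KRT6C, have similar sequences, and cross-reading was not tested. No probe carried the symbol KRT6A or KRT6B, so these genes could not be read. The KRT6C probe was detected on 1 of 6 arrays and was not tested. Its means were 5.75 in GFP and 5.30 in GRK3 cells, close to background. KRT16, a type I chain of stressed epidermis, gave -0.24 ± 0.11 (SE; limma adjusted p = 0.453), and KRT10, of suprabasal epidermis, 0.13 ± 0.12 (SE; limma adjusted p = 0.756). The differences of KRT9, KRT23 and KRT37 lay between -0.02 and 0.04.

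RefSeq promoters were given for KRT8 and KRT5, the type II chains of the detected and of the undetected pair, and for KRT4 and KRT75, the type II chains furthest from 0. The 250 bases before the annotated start of each (GRCh38.p14, minus strand) are shown 5′ to 3′ to give the sequence at the annotated start of a detected and an undetected chain. The start used for KRT8 may be that of an alternative upstream transcript, so no comparison of KRT8 with KRT5 is drawn from them. They lie at chr12:52926470-52926719 for KRT8, chr12:52520395-52520644 for KRT5, chr12:52814117-52814366 for KRT4 and chr12:52434372-52434621 for KRT75. Capitals mark matches to the motifs below.
KRT8: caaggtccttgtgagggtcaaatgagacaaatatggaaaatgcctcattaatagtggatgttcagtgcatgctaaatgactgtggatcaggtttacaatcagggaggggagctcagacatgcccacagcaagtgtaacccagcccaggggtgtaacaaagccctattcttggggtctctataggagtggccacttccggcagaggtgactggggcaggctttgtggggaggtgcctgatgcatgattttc
KRT5: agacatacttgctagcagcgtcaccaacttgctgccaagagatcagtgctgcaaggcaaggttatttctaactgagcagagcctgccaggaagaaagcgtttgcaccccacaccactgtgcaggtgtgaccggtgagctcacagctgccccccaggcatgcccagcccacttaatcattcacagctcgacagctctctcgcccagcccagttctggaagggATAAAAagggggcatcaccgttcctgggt
KRT4: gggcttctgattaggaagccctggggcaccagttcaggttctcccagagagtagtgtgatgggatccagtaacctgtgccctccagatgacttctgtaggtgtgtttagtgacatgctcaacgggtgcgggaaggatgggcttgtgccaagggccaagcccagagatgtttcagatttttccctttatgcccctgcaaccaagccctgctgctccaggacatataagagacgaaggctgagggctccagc
KRT75: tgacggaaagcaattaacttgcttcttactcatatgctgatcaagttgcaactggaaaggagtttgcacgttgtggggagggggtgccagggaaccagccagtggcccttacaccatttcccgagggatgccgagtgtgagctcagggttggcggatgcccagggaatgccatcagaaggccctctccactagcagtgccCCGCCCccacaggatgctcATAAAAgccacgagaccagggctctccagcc

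Motifs were searched on both strands. Their letters were chosen with the sequences in view, so the shares of promoters given here are a description and not a test. The TATA-like run ATAAAA was found in KRT5, 29 bases before the start, and in KRT75, 31 bases before it, and 14.8% of 35116 promoters of the same length hold it. The TATA box, spelled TATAAA, is held by 10.7% of promoters and was found in none of the 4. KRT4 holds the run tataag close to its start, which differs from that spelling in the last base. That run was not among the motifs searched, so it is unmarked and has no background share. The GC box GGGCGG was found in KRT75 alone of the 4, on the opposite strand, against 42.6% of promoters. The CCAAT box, with the letters of its name, is held by 32.0% of promoters, and the AP-1 site, spelled TGANTCA, by 6.57%, and neither was found in the 4. A match is a run of letters and not a shown binding site. The start in the table need not be that of the transcript a probe reads.

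Keratin filaments anchor at desmosomes and hemidesmosomes, and 0 of the 12 tested genes of these junctions passed, with a median difference of -0.01. The hemidesmosomal laminin chain LAMB3 differed by -0.47 ± 0.12 (SE; limma adjusted p = 0.140) and the desmosomal plaque gene PKP1 by -0.40 ± 0.09 (SE; limma adjusted p = 0.0903). A dimmer tested LAMB3 probe, detected on 2 GFP and 2 GRK3 arrays and close to background, differed by -0.04 (limma adjusted p = 0.962). PERP, a desmosomal membrane protein, differed by 0.33 ± 0.16 (SE) and integrin β4 (ITGB4) by 0.30 ± 0.13 (SE), with limma adjusted p-values of 0.487 and 0.409. The brighter LAMB3 probe passed without GRK3 replicate 1 (limma adjusted p = 0.0431). The probe of DSP, desmoplakin, which ties keratins to the desmosome, was detected on 0 arrays.

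Of the 13 tested genes in the list of plakins and keratin-binding genes, 0 passed, with a median of -0.07. The list was drawn broadly and also holds KRTCAP2, KRTCAP3 and GPER1, for which keratin binding was not tested. SFN, the 14-3-3 protein sigma, differed by -0.41 and periplakin (PPL) by 0.30, with limma adjusted p-values of 0.142 and 0.213. TCHP (trichoplein) and DST (dystonin) differed by -0.28 and 0.23 (limma adjusted p = 0.244 and 0.551). Of 9 tested intermediate filament genes outside the keratins, 0 passed and the median was -0.11. Vimentin (VIM), the mesenchymal filament, was furthest out at -0.66 ± 0.13 (SE; limma adjusted p = 0.0645). VIM passed in 7 of 16 alternatives, with limma adjusted p from 0.0189 to 0.259 (0.0378 without GRK3 replicate 1). SYNC, BFSP1 and SYNM differed by -0.32, -0.26 and 0.21 (limma adjusted p = 0.468, 0.558 and 0.458).

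Genes that go with basal or luminal keratins did not pass either. Of 14 tested basal genes 0 passed, 7 were higher and 7 lower, and the median was -0.01. Among the 7 higher, NGFR was detected on 1 GFP and 3 GRK3 arrays, so it passed the detection filter only through the group where it was high. EGFR, the epidermal growth factor receptor, differed by -0.42 ± 0.09 (SE; limma adjusted p = 0.0852), and CAV2 (caveolin-2) by -0.26 (limma adjusted p = 0.627). LAMB3, ITGB4, ITGA6, TRIM29 and DST are also in the lists above, so the lists are not independent. Of 19 tested luminal genes 0 passed, and 16 were higher and 3 lower in GRK3 cells. Of the 10586 named genes tested, 5218 were higher and 5368 lower. The luminal median was 0.12 against 0.00 over all named genes tested. At 1 of the 19 the groups did not overlap, against 16.4% of all tested probes. The list was chosen with earlier results of these data known, so these counts are a description. The transcription factor genes SPDEF and FOXA1 differed by 0.41 ± 0.14 (SE) and 0.40 ± 0.12 (SE), with limma adjusted p-values of 0.300 and 0.206. FOXA1 passed without GRK3 replicate 1 (limma adjusted p = 0.0378). MUC1 and HOXB13 differed by 0.34 and 0.25 (limma adjusted p = 0.365 and 0.578).

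**Figure D4:**
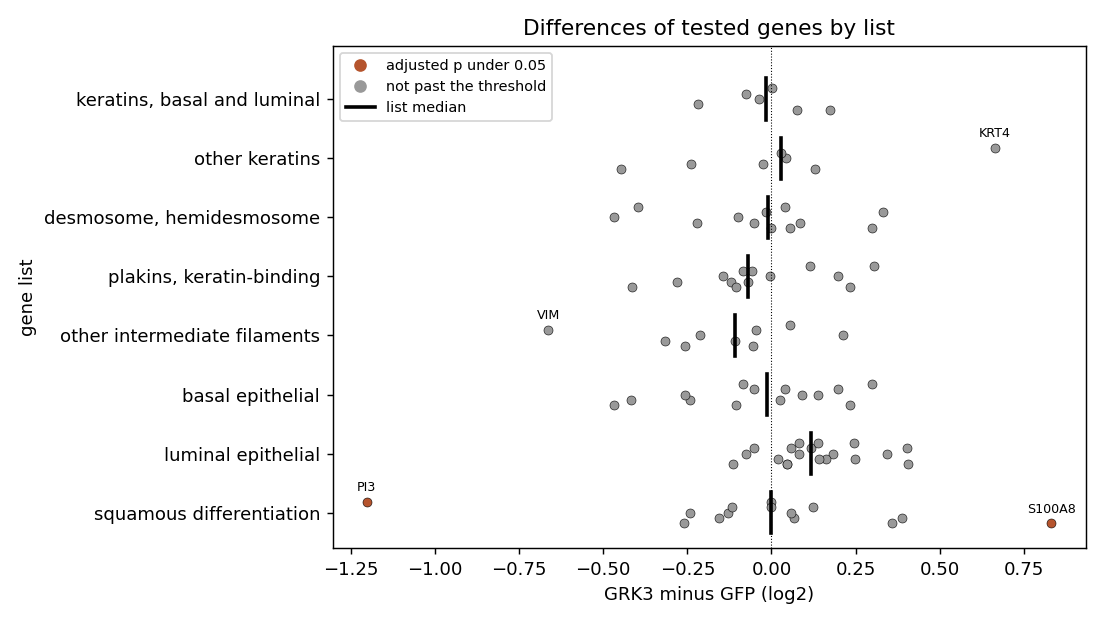
Difference between GRK3 and GFP cells (log2, horizontal axis) of each tested gene, by gene list (vertical axis), at its probe with the highest mean. Orange points passed at an adjusted p under 0.05, grey points did not, and black bars are list medians. PI3 and S100A8, both in the squamous list, are the 2 genes past the threshold.

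Squamous differentiation genes, which accompany keratin switches in stratified epithelia, held the calls among these lists, in opposite directions. The lists were chosen with earlier results of these data known, so where the calls fall is a description. Of 14 tested, 1 rose, 1 fell and 12 did not pass, with a median of 0.00. Among the 12, SBSN was detected on 3 GFP arrays and 1 GRK3 array, so it passed the detection filter only through the group where it was high. Of the 10586 named genes tested, 47 rose and 22 fell. Of all tested probes, 0.375% rose and 0.198% fell. S100A8, a calcium-binding protein of inflamed epidermis, was at 9.73 ± 0.14 in GFP and 10.56 ± 0.02 in GRK3 cells (SD, n = 3 each) and rose by 0.83 ± 0.10 (SE; limma adjusted p = 0.00517). Its partner S100A9 differed by 0.39 ± 0.10 (SE; limma adjusted p = 0.142) and the cornifelin gene CNFN by 0.36 (limma adjusted p = 0.239). PI3, or elafin, an elastase inhibitor of the cornified envelope, was at 13.52 ± 0.05 in GFP and 12.32 ± 0.12 in GRK3 cells (SD, n = 3 each) and fell by 1.20 ± 0.09 (SE; limma adjusted p = 0.000825). Involucrin (IVL), the classic cornified envelope protein, was detected on 1 GFP and 1 GRK3 array and was not tested.

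Markers of other cells did not pass. Read at the probe with the highest mean, fibroblast markers differed by -0.01 to 0.29, leukocyte markers by -0.09 to 0.18, and the endothelial marker PECAM1 by 0.21. Of the 10 tested genes of these lists, 0 passed. The leukocyte marker CD68 had a dimmer tested probe, detected on all 6 arrays, which differed by -0.65 (limma adjusted p = 0.131). Its sign was opposite to the 0.18 of the brighter CD68 probe, and its groups did not overlap. ESAM, the other tested endothelial marker, was detected on 1 GFP and 3 GRK3 arrays, so it passed the detection filter only through the group where it was high, and its group means were 5.74 and 5.97, close to background. Among the 10 genes, the groups did not overlap at the fibroblast marker PDGFRA and at PECAM1 and ESAM, against 16.4% of all tested probes. FOLH1, the 1 tested gene of the PC3 identity list, differed by 0.07 (limma adjusted p = 0.857).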

How the data were processed

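Expression was measured on 6 arrays. The authors deposited a table of average bead intensity per probe and array, not normalized per the file headers, with a detection p-value beside each intensity. A second deposited table holds intensity that equals the first times 1 factor per array, from 0.931 to 1.10, with column medians from 131.6 to 140.7 and no log or centring. It served as an alternative. Their software is not given in the sources used. Probes were named by the platform annotation: 21834 had 1 symbol, 2692 none and 0 several.

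Intensities were corrected, quantile-normalized and log2-transformed by limma's neqc function with an offset of 16 (limma 3.58.1, R 4.3.3). The 14130 probes with a detection p-value under 0.05 on at least 3 arrays were compared by lmFit and eBayes, two-sided, with no covariate and with Benjamini-Hochberg adjustment over these probes. The threshold was an adjusted p of 0.05. The test was tried on simulated data. A gene in a list was read at its tested probe with the highest mean. "At least" folds set the bright group's mean against the dim group's, with each dim array raised to its lowest detected signal where the probe was under it.

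Members and lists were chosen with earlier results of these data known. Named were all member probes, the other tested keratins, list genes past the threshold and up to 4 with the largest difference per list. For KRT8 and KRT18 the 3 genes with the highest correlation were named. EPCAM, CDH1 and genes mentioned for their detection are exceptions to this rule. Promoters were those found in the RefSeq table, and motif letters were chosen with the sequences in view. Alternatives were background correction, offset, scaling, the authors' value table, detection filters, intensity trend, array weights, a replicate block, arrays left out and the mean of a gene's probes.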

Additional observations from a re-analysis of the deposited data

How the results depend on the processing

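The count of 0 keratin members past the threshold stayed at 0 under every alternative run, and its lowest adjusted p was 0.509, without GFP replicate 1. The sign of the difference turned in 4 of 16 alternatives for KRT8 and 1 of 17 for the brighter KRT18 probe, and in 1 each for the dimmer KRT18 probe, KRT19 and the dimmer KRT80 probe, with 0 past the threshold. The count of all probes that passed, 81 (53 higher and 28 lower), was 239 with array weights, 136 with an intensity trend, 134 with no background correction, 122 with an offset of 50, 23 with no detection filter and 11 with the replicate block. With 1 array left out the lowest count was 23 (GRK3 replicate 2 left out) and the highest 183 (GRK3 replicate 1 left out). The authors' value table gave 57 higher and 55 lower, or 50.9% higher against 65.4%. Leaving out GFP replicates 1, 2 and 3 gave 39, 24 and 30, and leaving out GRK3 replicate 3 gave 35.

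Replicate numbers did not pair the arrays: deviations of same-numbered arrays correlated at -0.41, 0.18 and -0.41, and only number 2 correlated best with its own number. GFP replicate 3 correlated best with GRK3 replicate 1 (0.51) and GFP replicate 1 with GRK3 replicate 3 (0.43), which neither the fit nor the block takes into account. With the replicate block, 0 keratin members passed, and the squamous list had 1 call in place of 2. KRT4 passed with array weights, the authors' value table, median scaling, no background correction and without GRK3 replicate 1. It was tested only through its GRK3 arrays, so these passes carry the same selection and are no support for a difference. KRT75 passed with array weights, the authors' value table, an intensity trend and no background correction. Over the 12 gene lists, 166 of 192 counts stayed within 1.5 times of the count reported, and 26 moved, by at most 2 genes. Of 33 named list genes, 9 passed in at least 1 alternative. PI3 passed in 16 of 16 and S100A8 in 15 (not with the replicate block, limma adjusted p = 0.0683). VIM passed in 7, EGFR in 5, PKP1 in 3, LAMB3 in 2, and FOXA1, S100A9 and SFN in 1 each. Signals near background limit KRT5, KRT14, KRT4 and the dimmer KRT18 probe.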
